A study of Homo sapiens with 4 samples.

Results

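The 10 genes described here are core members of the ATF4 arm of the integrated stress response, namely ATF4, DDIT3, ATF3, CHAC1, TRIB3, ASNS, SESN2, DDIT4, PPP1R15A and CEBPB. They were listed by name, and every peak of the IRF3 lists with its summit inside a gene or within 10 kb of it was taken, which gave 33 regions of the 49089 that the merged lists hold. The study mapped binding of the transcription factor IRF3 by ChIP-seq in MM1.S cells, an established human multiple myeloma line that serves as a model of malignant plasma cells. The cells received no treatment, and there were 2 IRF3 ChIP samples and 2 input samples, each ChIP being compared by the authors with the input of its own number. The ChIP libraries held 38568845 and 46474586 tags. The labels do not state whether the replicates were grown or fixed separately, and their differences can be purely technical. With 2 libraries of 1 group there was no contrast to test, and all values are descriptions. Peak lists hold no RNA level, so the cell line label was not checked here.

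In the integrated stress response, kinases that sense amino acid shortage, unfolded protein, double-stranded RNA or haem lack phosphorylate the translation factor eIF2. General translation then falls while the ATF4 mRNA is translated more, and the ATF4 protein activates genes of amino acid supply, redox balance, feedback and cell death through C/EBP-ATF response elements. Plasma cells secrete much antibody, and this response is known there for its link to proteasome inhibition. IRF3 itself is known mainly as an activator of interferon and antiviral genes.

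The sequences below are shown because they lie just upstream of the starts at which most of the IRF3 signal of these genes sat. They show which elements lay beside the start peaks that were strongest in replicate 2 (ATF4, DDIT3), the starts with an element that ATF4 can use (CHAC1, ASNS, PPP1R15A), and the start where the replicates differed most (CEBPB). Each is the 250 bases before the most upstream listed start near the peak, 5′ to 3′, from RefSeq, build GRCh38.p14. Capitals mark matches, on either strand, to the C/EBP-ATF element TGATGNAA, the cyclic AMP element TGACGTCA, the AP-1 element TGANTCA, the IRF element core GAAANNGAA or the CCAAT box.
ATF4, chr22:39520309-39520558, plus strand: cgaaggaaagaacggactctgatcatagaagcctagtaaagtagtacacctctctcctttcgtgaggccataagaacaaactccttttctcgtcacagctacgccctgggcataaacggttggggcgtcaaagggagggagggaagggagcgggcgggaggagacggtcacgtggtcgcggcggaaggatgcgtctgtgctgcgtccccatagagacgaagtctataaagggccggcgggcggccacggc
DDIT3, chr12:57520518-57520767, minus strand: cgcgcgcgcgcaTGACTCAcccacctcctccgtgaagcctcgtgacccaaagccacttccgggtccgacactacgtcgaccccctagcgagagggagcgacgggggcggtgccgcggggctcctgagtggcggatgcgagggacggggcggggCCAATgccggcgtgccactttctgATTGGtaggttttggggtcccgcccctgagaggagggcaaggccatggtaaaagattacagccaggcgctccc
CHAC1, chr15:40953221-40953470, plus strand: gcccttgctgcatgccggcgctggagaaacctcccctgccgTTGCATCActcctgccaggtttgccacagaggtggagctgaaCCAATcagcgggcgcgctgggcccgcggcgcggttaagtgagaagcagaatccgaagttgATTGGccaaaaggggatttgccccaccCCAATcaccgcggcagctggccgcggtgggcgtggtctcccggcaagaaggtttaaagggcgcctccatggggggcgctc
ASNS, chr7:97872409-97872658, minus strand: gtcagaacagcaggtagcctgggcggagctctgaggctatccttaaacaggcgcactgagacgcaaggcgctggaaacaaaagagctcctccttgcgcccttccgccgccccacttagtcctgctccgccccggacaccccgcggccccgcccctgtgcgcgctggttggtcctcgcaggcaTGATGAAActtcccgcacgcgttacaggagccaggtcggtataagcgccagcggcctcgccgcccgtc
PPP1R15A, chr19:48872171-48872420, plus strand: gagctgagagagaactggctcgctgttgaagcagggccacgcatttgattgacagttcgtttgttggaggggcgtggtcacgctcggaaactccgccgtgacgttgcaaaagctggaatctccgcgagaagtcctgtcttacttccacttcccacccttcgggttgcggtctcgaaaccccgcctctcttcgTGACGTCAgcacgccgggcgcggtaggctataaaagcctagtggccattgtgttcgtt
CEBPB, chr20:50190333-50190582, plus strand: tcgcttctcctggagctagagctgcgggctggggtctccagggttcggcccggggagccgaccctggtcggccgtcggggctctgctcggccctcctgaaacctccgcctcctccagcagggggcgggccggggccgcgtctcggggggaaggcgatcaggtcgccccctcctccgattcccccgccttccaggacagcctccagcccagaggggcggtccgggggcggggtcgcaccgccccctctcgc

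The 300 bases from 250 before to 50 after the start were searched in all 10 genes, and the same in 22183 such promoters of protein-coding genes. For ATF3 this was the window of the downstream listed start, which does not cover its strongest region. The C/EBP-ATF element was found at CHAC1, from position -209 on the reverse strand, and at ASNS, from position -68, against 2.70% of all promoters. The cyclic AMP element was found at PPP1R15A, from position -58, against 2.26% of all promoters. DDIT3 alone among the 10 held the AP-1 element, present in 6.15% of all promoters. None of the 10 windows held the IRF element core, which was present in 7.10% of all promoters. A CCAAT box lay at DDIT3, CHAC1, SESN2, DDIT4 and, just after the start, CEBPB, or 5 of 10, against 34.7% of all promoters. The shorter GC box GGGCGG and ETS motif CCGGAA, not capitalised above, were held by 6 and 3 of the 10, against 56.3% and 21.2% of all promoters. These are matches of letters in 1 short window and say nothing of where a factor binds.

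Each of the 10 genes had IRF3 peaks, and at 9 of them a peak sat within 1 kb of a start in both replicates. The deposited fold enrichment is the ratio of ChIP signal to local input background at a peak's summit, the authors' own value for each peak. Of the 33 regions, 26 were shared, meaning that peaks of both replicates overlapped by at least 1 bp, while 6 came from replicate 2 alone and 1 from replicate 1 alone. Over the genome, 32246 of the 49089 regions were shared. All 10 genes had at least 1 shared region within the window, compared with 69.3% of 20037 protein-coding genes, and 9 of 10 had a peak within 1 kb of a listed start in both replicates, compared with 54.5% of the 15842 protein-coding genes whose starts the promoter table lists. A shared region with a fold enrichment of at least 5 in both replicates was present at 7 of 10, the exceptions being CHAC1, TRIB3 and CEBPB, compared with 42.7% of protein-coding genes. The median over the 10 genes of the highest fold enrichment in a shared region was 9.98 in replicate 1 and 27.7 in replicate 2. Over all protein-coding genes with a shared region these medians were 6.03 and 8.63. The genes thus stood further above the rest in replicate 2 than in replicate 1.

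**Figure D1:**
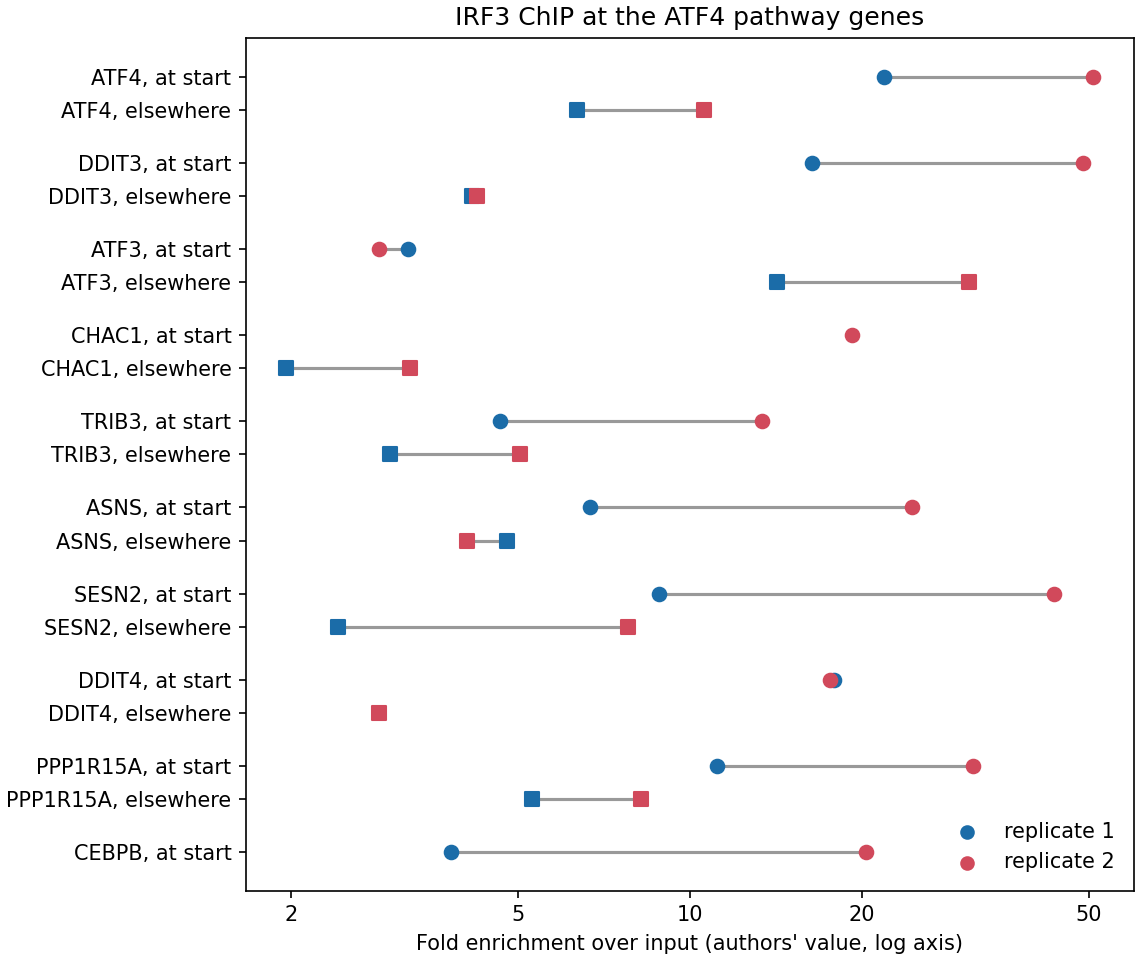
Fold enrichment over input (log axis) of the highest region within 1 kb of a listed start (circles) and the highest region elsewhere in the window (squares) for each gene, in replicate 1 (blue) and replicate 2 (red), a missing point meaning that no peak was called. Replicate 2 lies to the right at most starts, up to 50.9 at ATF4, while the points of DDIT4 nearly coincide at 17.9 and 17.6, and CHAC1 has a start point in replicate 2 alone.

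Among the transcription factor genes, ATF4, the effector of the response, had the strongest region of the 10 genes (chromosome 22, 39519058 to 39521881). Its fold enrichment was 21.9 in replicate 1 and 50.9 in replicate 2, which put it in the highest 1% of starts in each list. The summits lay 87 and 102 bp after the nearest start. Here and below, a negative distance is upstream of the start in the direction of transcription. Near it, 5 weaker shared regions and 1 of replicate 2 alone lay in the window, and 3 of the shared ones were nearer to an end of RPS19BP1, the strongest of these with 6.34 and 10.6. A region at -4571 and -4560 bp was nearer to an end of MIEF1 (2.45 and 5.70).

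DDIT3, which encodes the death-linked factor CHOP, had 16.3 and 48.8 (chromosome 12, 57519643 to 57521310), next to ATF4 in replicate 2 and below DDIT4 (17.9) in replicate 1. Its summits lay 44 and 82 bp after a start on the minus strand, and the summit of replicate 2 was 48 bp from an end of LOC128125814, nearer than to an end of DDIT3. The same region lay within the 10 kb window of MARS1, a methionine tRNA ligase gene with a separate peak at its own start (5.06 and 8.54). Which of these genes the signal acts on was not tested. A second shared region, with summits at -1996 and -1659 bp and nearer to MBD6, had 4.14 and 4.24. Fold enrichment thus differed between the replicates at the DDIT3 start and hardly at all just upstream. The scaled pileup, the ChIP part described below, differed less at the start than upstream. Its log2 ratios of replicate 2 to replicate 1 were -0.13 at the start and -0.75 in the upstream region. Those of the local background, also described below, were -1.80 and -0.81.

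CEBPB, which encodes a bZIP partner of ATF4, differed most between the replicates among the genes with a start peak in both. Replicate 2 had 1 peak of 2267 bp over the gene, with a fold enrichment of 20.3 and its summit 111 bp after a start. Replicate 1 had 3 short peaks under it, and the highest of these reached 3.81, at a summit 1356 bp after the nearest start. In replicate 1 the CEBPB peaks were thus ordinary ones, at the 48.0 percentile of the list at best, while in replicate 2 the peak was at the 98.5 percentile.

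ATF3, a stress-induced repressor, was the gene whose main region did not lie at a listed start. The region (chromosome 1, 212606576 to 212610373) was 3798 bp long and had 14.2 and 30.8. Its summits lay inside the gene span, at -6196 and -6168 bp from the nearest listed start. The promoter table is not complete, and whether an unlisted start lies there was not analysed here. ATF3 has 2 listed starts. At that nearest one, the downstream start, the values were 3.20 and 2.85, and no peak lay within 1 kb of the upstream one. The 5 other shared regions in the window of this gene ranged from 2.19 to 4.24 in replicate 1 and from 2.17 to 7.33 in replicate 2. In 3 of these 7 regions, including the one at the downstream start, replicate 1 was the higher.

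Of the feedback genes, PPP1R15A encodes GADD34, which directs a phosphatase to eIF2 and so ends the response. Its start region (chromosome 19, 48872188 to 48873633) had 11.1 in replicate 1 and 31.3 in replicate 2, with summits 66 and 91 bp after the start. A second shared region over the end of the gene had 5.28 and 8.20. TRIB3 encodes a pseudokinase that restrains ATF4 activity. Its start region (chromosome 20, 380133 to 382312) had 4.64 and 13.3. Here the summits lay 951 bp apart, at -366 bp from a listed start in replicate 2 and 537 bp after one in replicate 1. The replicate 2 summit was still inside the annotated gene span, 169 bp from its upstream end, where no start was listed. A weaker TRIB3 region beyond the gene had 2.98 and 5.03.

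Of the genes of amino acid and thiol supply, ASNS encodes asparagine synthetase. The ASNS region (chromosome 7, 97871744 to 97872895) held both listed starts and had 6.68 in replicate 1 and 24.5 in replicate 2. The summits lay 41 bp apart, 103 and 144 bp after the upstream start. A weak region inside the annotated span, at -43068 and -43037 bp, had 4.78 and 4.07, the order of the replicates being the other way round.

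CHAC1 encodes an enzyme that degrades glutathione. At its start (chromosome 15, 40952558 to 40953961) replicate 2 had a peak of fold enrichment 19.2, with its summit 112 bp after the start, and replicate 1 had none. A peak list gives no value where nothing was called, so the level in replicate 1 is not known. Among the 745 peaks of replicate 2 that were at least as high, this was the only one that no peak of replicate 1 overlapped. The only shared region of CHAC1 lay at -7173 and -7141 bp from the start and was weak, with 1.96 and 3.23, and was nearer to the pseudogene ISCA1P4. The place of CHAC1 among genes with a shared region therefore rested on that region and not on its start.

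SESN2 and DDIT4 both encode stress-induced inhibitors of the growth kinase mTORC1, and they behaved differently here. The SESN2 start region (chromosome 1, 28258711 to 28260119) had 8.82 in replicate 1 and 43.3 in replicate 2, with summits 58 and 91 bp after the start. A second SESN2 region, at -9857 and -9794 bp, also differed, with 2.42 and 7.78. At DDIT4 (chromosome 10, 72272763 to 72275246) the values were 17.9 and 17.6, with summits 75 and 103 bp after the start. DDIT4 was therefore above SESN2 in replicate 1 and below it in replicate 2, so the order of strength among the 10 genes depended on the library.

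**Figure D2:**
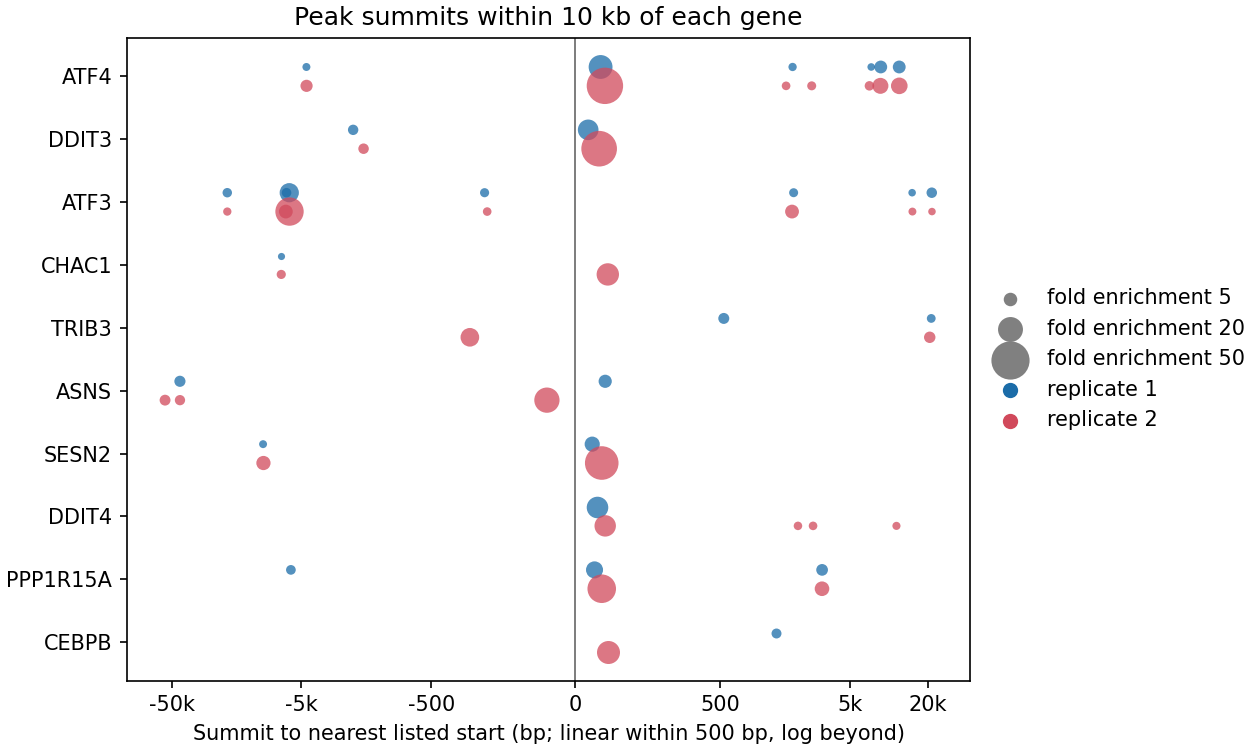
Distance from each peak summit to the nearest listed start of its gene, in the direction of transcription (linear near the start, log farther out), with a point for the highest peak of each region per replicate and the point area in proportion to fold enrichment. The large points of ATF4, DDIT3, SESN2, DDIT4 and PPP1R15A lie just after the start in both replicates, and the largest of ATF3 lie at -6196 and -6168 bp.

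Strong summits lay shortly after the start of transcription. In ATF4, DDIT3, SESN2, DDIT4 and PPP1R15A, both summits lay between 1 and 150 bp after the nearest listed start. The ASNS summits met this for the upstream start alone, since the summit of replicate 2 was nearer to the downstream one, and ASNS was not counted. That was 5 of the 9 genes with a start peak in both replicates, against 37.9% of the 8628 protein-coding genes with such peaks, a share that rose from 27.6% in the weakest quartile of those starts by mean fold enrichment to 48.0% in the strongest. The median position over the 9 genes was 75 bp after the start in replicate 1 and 91 bp in replicate 2, compared with 64 and 87 bp over all such genes. In the 26 shared regions the 2 summits were 39.5 bp from each other at the median, and in 20 regions within 100 bp. Position at these genes was thus close to that at other starts, and it was the fold enrichment that differed.

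Fold enrichment at most of these starts was much greater in replicate 2, by more than at other genes. Its ChIP part, given further below, differed less at those starts. At the 9 starts with a peak in both replicates, the strongest peak within 1 kb was taken in each. Replicate 2 was higher at 7 of 9 starts, which is no more than the 90.8% of all 8628 starts. It was over 2-fold higher at the same 7, namely ATF4 (2.33-fold), PPP1R15A (2.81-fold), TRIB3 (2.88-fold), DDIT3 (2.99-fold), ASNS (3.67-fold), SESN2 (4.91-fold) and CEBPB (6.85-fold), compared with 20.9% of all such starts. The exceptions were DDIT4 at 0.987-fold and the weak ATF3 start at 0.891-fold. The main ATF3 region, which lay away from the listed starts and was not counted here, was 2.17-fold higher in replicate 2. The median log2 ratio of replicate 2 to replicate 1 was 1.52 over the 9 genes and 0.63 over all 8628.

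In the order of these ratios, CEBPB stood first of the 8628 starts, SESN2 10th, ASNS 42nd, DDIT3 178th, TRIB3 225th and PPP1R15A 264th. Those 6 were in the highest 5%, and ATF4, at 829th, was in the highest 10%. DDIT4, at 7899th, was in the lowest 10%, and the weak downstream ATF3 start was 8198th. The CEBPB and TRIB3 values compare peaks whose summits lay apart. For CEBPB the highest replicate 1 peak within 1 kb of a start was at 716 bp, with 2.97. For TRIB3 the summits of the replicates were 951 bp apart. The genes next to CEBPB in the order, named after their values were seen, were the immediate-early gene FOS (6.02 and 38.8) and the cytoskeletal gene PDLIM3 (3.05 and 18.0).

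**Figure D3:**
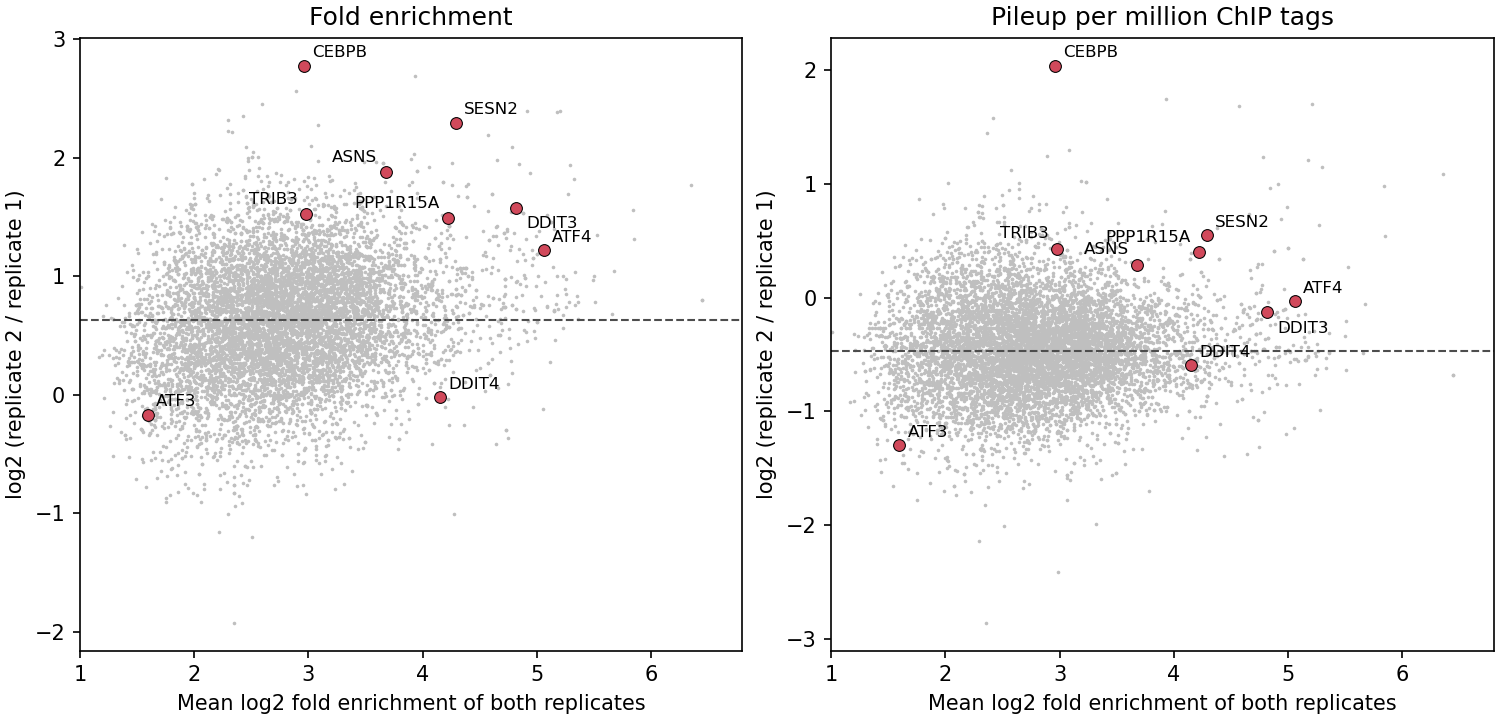
The log2 ratio of replicate 2 to replicate 1 at the strongest peak within 1 kb of a start, against the mean log2 fold enrichment of both replicates, for 8628 protein-coding genes (grey) with 9 of the 10 genes marked and the median of all as a dashed line. With fold enrichment (left) the median of all is 0.63 and 7 marked genes lie above 1, and with pileup per 1000000 ChIP tags (right) the median of all is -0.47 and 5 marked genes lie above 0.

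Stronger starts had higher ratios of fold enrichment in general, though strength was the mean of the same 2 values that make the ratio. In the strongest quartile of starts, 26.5% were over 2-fold higher in replicate 2, as were 5 of the 6 genes of that quartile (all but DDIT4). In the next quartile 21.9% were, as were both genes there, TRIB3 and CEBPB. The scaled pileup, described below, did not rise in this way, with a median log2 ratio of -0.47 in the weakest quartile and -0.46 in the strongest. The base composition of the promoter window did not move with the ratio of fold enrichment. From the quartile of starts lowest in G and C to the highest, the median log2 ratio was 0.61, 0.64, 0.63 and 0.64, while the windows of the 9 genes ranged from 46.3% (ATF3) to 77.0% (TRIB3).

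Fold enrichment has a ChIP part and an input part, and both differed between the libraries. The deposited pileup counts the fragments that cover the summit. It was scaled to 1000000 ChIP tags of its library, and the local background was worked back from pileup and fold enrichment on the same scale, with an assumed pseudocount of 1. At all 8628 starts the median log2 ratio of replicate 2 to replicate 1 was -0.47 for the scaled pileup and -1.15 for the local background, so the generally higher fold enrichment of replicate 2 went with a lower background. Over the 9 genes the median background ratio was much the same, at -1.16, but the median pileup ratio was 0.29. Single genes varied, with background ratios from -1.86 at SESN2 to -0.59 at DDIT4. At SESN2 and ASNS the background changed more (-1.86 and -1.68) than the pileup (0.55 and 0.29), as it did at TRIB3 and PPP1R15A. At CEBPB the pileup changed more (2.04) than the background (-0.81). Scaled pileup was higher in replicate 2 at 5 of 9 starts, compared with 11.5% of all such starts.

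At CEBPB the scaled pileup was 1.09 in replicate 1 and 4.48 in replicate 2, the highest ratio of the 8628 starts. For SESN2 it was 5.52 and 8.09, for PPP1R15A 5.83 and 7.68, for ASNS 4.41 and 5.38, and for TRIB3 2.33 and 3.14. These 5 starts were all in the highest 5% of pileup ratios, though at CEBPB and TRIB3 the summits of the replicates lay apart. ATF4 and DDIT3 had nearly equal pileups, with 12.8 and 12.5 at ATF4 and 12.2 and 11.2 at DDIT3. The local background was 0.561 and 0.225 at ATF4 and 0.724 and 0.208 at DDIT3. The log2 ratios of pileup were -0.03 and -0.13 at these starts, both above the -0.47 of all starts, and those of the background were -1.32 and -1.80, both below the -1.15 of all starts. DDIT4 had 9.36 and 6.20, a fall close to that of starts in general.

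Away from the starts the difference in fold enrichment between replicates was smaller. Over all 26 shared regions, replicate 2 had the higher fold enrichment in 21, against 68.2% of the 32246 shared regions of the genome. The 17 shared regions without a summit within 1 kb of a listed start of their gene had a median log2 ratio of 0.65, with 14 of them higher in replicate 2. The median over all shared regions of the genome was 0.25, but that set includes regions at starts, so the comparison is not of like with like. Of the 26, 10 were nearer to an end of another gene than to an end of the gene whose window held them.

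The rest of the pathway was described by 8 lists with 90 other genes, of which 79 had a shared region within 10 kb, against 69.3% of protein-coding genes. Of the 71 with a listed start, 57 had a start peak in both replicates, against 54.5%. At those 57 starts the median log2 ratio was 0.84, between that of the 10 genes and that of all starts, and 23 were over 2-fold higher in replicate 2, against 20.9% of all starts. These 3 shares of all genes are also the ones to set beside the counts of each list below. Within a list, genes were ranked by the worse of their fold enrichment ranks in the 2 replicates, and the first 2 are named, so another gene can be higher in 1 replicate. Related genes and shared regions make these counts less than independent.

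Upstream, all 8 genes of kinases and sensors had a shared region. The best-ranked were GCN1, an activator of the kinase GCN2 (20.1 and 57.5, with 6.09 and 10.1 at its own start), and EIF2AK3, which encodes the endoplasmic reticulum kinase PERK (11.7 and 24.1). The 8 eIF2 and eIF2B subunit genes all had one too. EIF2S2 (8.53 and 21.8) and EIF2S3 (8.19 and 13.4) ranked first by that rule, though in replicate 1 EIF2S1, EIF2B3 and EIF2B1 had higher values than both. Their median log2 ratio at the start was 0.39, below that of all starts, and none of the 7 with values was over 2-fold higher. In the eIF2 phosphatase list 4 of 4 genes had a region, with PPP1R15B, the constitutive counterpart of PPP1R15A, at 9.27 and 21.0 and the catalytic subunit gene PPP1CC at 9.13 and 15.8.

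**Figure D4:**
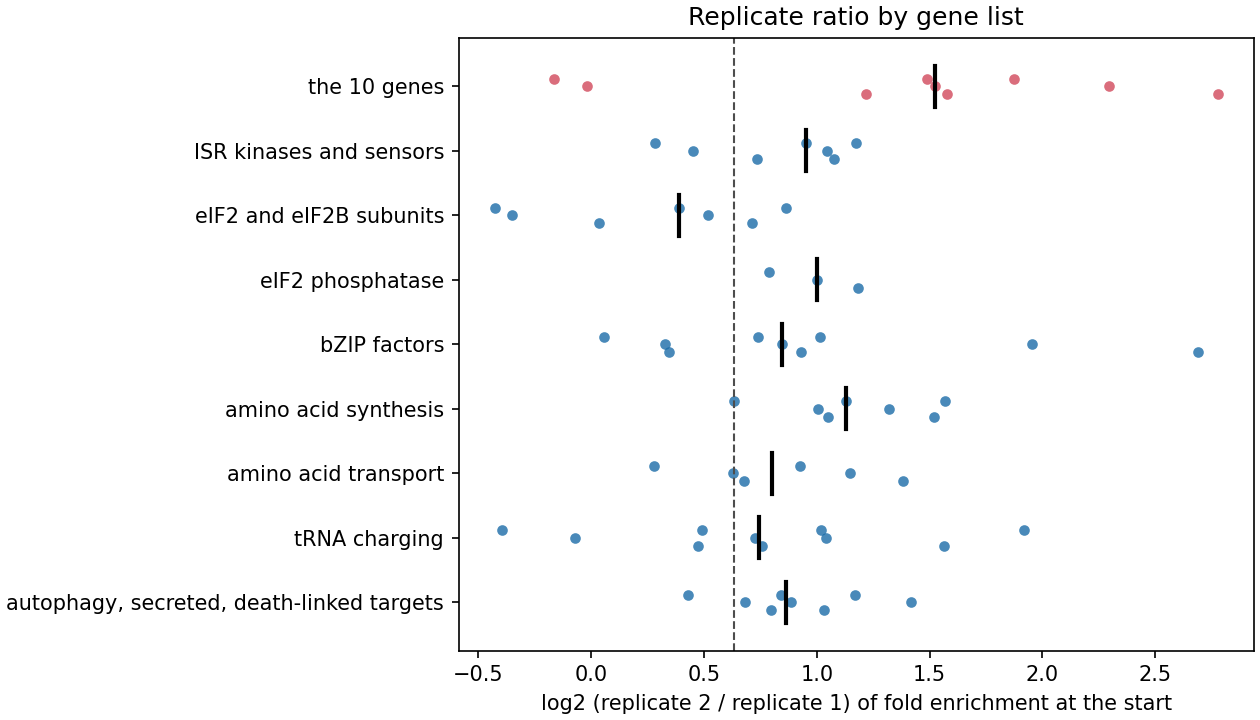
The log2 ratio of replicate 2 to replicate 1 of the fold enrichment at the start for each gene with a start peak in both replicates, by list, with list medians as black bars and the median of all 8628 starts (0.63) as a dashed line. The 10 genes (9 with values, red) have a median of 1.52, amino acid synthesis genes 1.13 and eIF2 and eIF2B subunits 0.39.

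Among other bZIP factor genes, which include possible partners of ATF4, 10 of 15 had a shared region. XBP1 (16.9 and 28.1) and ATF5 (14.6 and 26.3) ranked first by that rule, while FOS (38.8) and JUN (37.6) were higher than both in replicate 2. BATF2, CEBPA and CEBPD had no peak in either replicate, so of the C/EBP genes on the lists CEBPB and CEBPG (7.88 and 15.0) had one and the other two did not.

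Downstream, amino acid synthesis genes had the highest median log2 ratio of the 8 lists, 1.13, with 6 of 7 starts over 2-fold higher in replicate 2 (20.9% of all starts), and 12 of 13 genes had a shared region. MTHFD2, of mitochondrial folate metabolism, led with 11.7 and 29.3, followed by the serine synthesis gene PSPH (7.36 and 10.7), and CBS had no peak. For amino acid transporters 9 of 10 genes had a region, the best-ranked being SLC3A2 (29.7 and 47.5) and SLC7A5 (31.5 and 38.2), whose products form 1 transporter, while SLC38A2 had 43.0 in replicate 2, and SLC7A3 had no peak. In the tRNA charging list all 12 genes had a region, led by MARS1 through the region it shares with DDIT3 and by GARS1 (9.50 and 19.2). Of 20 autophagy, secreted and death-linked targets 16 had one, led by the autophagy receptor gene SQSTM1 (39.9 and 64.0) and HERPUD1 (27.0 and 48.3), while NUPR1 and STC2 had no peak.

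Ratios varied within the target lists. Genes with large ratios at the start, named after their values were seen, were AARS1 (8.54 and 32.3), PCK2 (5.45 and 16.2), TARS1 (3.46 and 10.2) and PSAT1 (4.91 and 14.1). On the same lists SARS1 (7.53 and 5.73) and WARS1 (6.61 and 6.28) had lower values in replicate 2, and SLC7A5 had a log2 ratio of 0.28 at its start.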

How the data were processed

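MACS2 peaks of 2 IRF3 ChIP libraries were analysed, and the inputs entered only through the peak calls. Per the file headers, the authors used MACS2 version 2.1.2 with a q-value cutoff of 0.05, all duplicates kept, 38568845 and 46474586 ChIP tags and 58025919 and 60348415 input tags in replicates 1 and 2. The submitters' processing notes name the build GRCh38 and the tools MACS2 2.1.1, deepTools 3.3.1, SAMtools 1.2, Picard 2.6.0 and BWA 0.7.15. The lists held 41880 and 41666 peaks. The deposited fold enrichment is a ratio over local input, the deposited pileup is a signal at the summit, and the deposited −log10 q was used as a filter only. Fold enrichment depends on input depth and antibody recovery, so libraries differ in scale.

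Gene spans came from RefSeq GRCh38.p14, and starts and strands from a RefSeq promoter table that lists all 10 genes and 71 of the 90 list genes. Local background was computed as (pileup + 1) / fold enrichment − 1, which assumes a pseudocount of 1 in the caller. Percentiles are ranks within a list or within all starts. Python 3.11.15, numpy 2.4.6 and pandas 2.3.3 were used, and the merging and window steps were tested on simulated data. The rule for named genes took the 10 genes, the 2 best-ranked genes and up to 3 genes without a peak of each list, and nearer neighbours. The genes and lists were chosen with earlier results of these data known. Other windows, thresholds and overlap rules were tried, and the pileup comparison was added after the data were seen.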

Additional observations from a re-analysis of the deposited data

How the results depend on the processing

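Of the 90 list genes, 79 had a shared region, 72 with summits within 1 kb of an end and 60 with a fold enrichment of at least 5. The shares of all protein-coding genes in these settings were 69.3%, 49.8% and 42.7%. With summits within 1 kb of either end of the gene span in place of 10 kb around it, 6 of the 10 genes had a shared region (49.8% of protein-coding genes), there were 8 shared regions in place of 26, and replicate 2 was higher at 5 genes in place of 9. The span ends miss the ASNS start and the main ATF3 region. With a fold enrichment of at least 5 in each peak there were 10 shared regions, at 7 genes, and replicate 2 was higher at 6. Leaving out 1 replicate, regions numbered 30 to 32, list genes 80 to 82 and genes 10 in either case, and the median strengths stayed at 9.98 in replicate 1 and 27.7 in replicate 2. Of all protein-coding genes, 74.4% had a region without replicate 1 and 72.1% without replicate 2. With pileup per 1000000 ChIP tags, chosen after the data were seen, replicate 2 was higher in the strongest shared region of 6 genes. In the other settings run (5 kb, a −log10 q of at least 5, summits within 100 bp), 9 of the 10 genes and 74 to 78 of the 90 list genes had a shared region, and replicate 2 was higher at 8 genes. The shares of all protein-coding genes with a shared region were 65.8%, 67.3% and 62.8% in that order. No paired analysis was possible because no test was made between groups and the inputs have no file of their own here. The depth limits what can be said where a peak was not called, as at CHAC1 in replicate 1.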
